A study of Mus musculus with 16 samples.

Results

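The genes examined here are 9 enzymes of the methionine cycle and of the one-carbon reactions joined to it: Mat1a, Mat2a, Gnmt, Pemt, Ahcy, Bhmt, Shmt1, Cbs and Cth. They were taken as the rows whose gene symbol equals one of these names, 9 of 55487 rows, and all 9 passed the filter on low counts. RNA was sequenced from livers of mice fed a high-fat diet, in 6 Flpo, 5 Cre and 5 GFP libraries. The series text names the mice for hepatocyte-specific splice forms of the stress kinases JNK1 and JNK2: LJ1J27b stands for Flpo, LJ1J27a for Cre and LJ1J2control for GFP. Cre and Flpo are recombinases, enzymes that cut out or turn round DNA between their target sites, and GFP is a fluorescent protein used as the control. Every library, the GFP controls included, carries the genotype label J1 J2 lf/lf on the C57/Bl6J strain, which all 3 groups share. The sources used here do not give age, sex, time on the diet or the promoter behind each recombinase. Whether each library is a separate mouse is not stated, and the p-values therefore speak of the spread between libraries. Each group has its own run of library numbers, and a shared batch or day of harvest cannot be told apart from the group.

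The methionine cycle turns methionine into S-adenosylmethionine, the methyl donor of most methylation reactions, and brings the homocysteine that remains back to methionine or sends it into cysteine synthesis. The liver is the main site of methionine breakdown and holds nearly all of the enzymes of the pathway. Folate and betaine supply the methyl groups for remethylation, and transsulfuration through cystathionine drains homocysteine towards cysteine and glutathione.

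Total counts ranged from 27929393 to 36043322 per library, and the enzymes had between 1599 and 268667 deposited estimated counts in each library, so counting error was small beside the spread between libraries. The sum of 5 hepatocyte markers was 63689 to 77675 TPM in Flpo, 60932 to 83508 TPM in Cre and 69191 to 80997 TPM in GFP, where TPM is abundance scaled for gene length and to the same total in every library. At an adjusted p under 0.05, 2 of these 5 were lower in Flpo than in Cre, and 1 was higher and 1 lower in Cre than in GFP. Of 5 tested cholangiocyte markers, 1 was higher in Cre than in GFP, and 1 was higher and 1 lower in Flpo than in Cre. Of 6 endothelial markers, 1 was higher in Cre than in GFP and 1 lower in Flpo than in Cre. Of 5 erythroid markers, 1 was lower in Cre than in GFP. Of 6 stellate cell markers, 4 were higher in Flpo than in Cre and 3 were lower in Cre than in GFP. Over all genes, 13.7% passed the same threshold in Flpo against Cre and 9.55% in Cre against GFP. The sum of the stellate cell markers was 19.5 to 37.3 TPM in Flpo, 8.84 to 17.8 TPM in Cre and 17.4 to 35.9 TPM in GFP. The sum of 4 adipocyte markers was 15.3 to 51.2 TPM in Flpo, 1.94 to 4.02 TPM in Cre and 10.8 to 29.0 TPM in GFP, with Cre below both other groups in every library. Cfd, the only one of the 4 that could be tested, was higher in Flpo than in Cre and lower in Cre than in GFP, while Adipoq, Plin1 and Lep were at 0.510, 0.392 and 0.0948 TPM or less in every library. Of 10 circadian clock genes, 3 were lower in Cre than in GFP, and 4 were higher and 3 lower in Flpo than in Cre, beside 9.55% and 13.7% of all genes. A clock score, the mean z-score of 6 of these genes minus that of the other 4, ran between 0.395 and 1.496 in Flpo, between -2.02 and 0.456 in Cre and between -0.836 and 0.792 in GFP. The genes of the targeted kinases cannot show the splice form in counts per gene: Mapk8 averaged 13.5 ± 0.824 CPM in Flpo, 11.4 ± 2.44 in Cre and 11.7 ± 3.04 in GFP (SD, n = 6, 5 and 5). Mapk9 averaged 46.3 ± 4.21 CPM in Flpo, 33.1 ± 5.49 in Cre and 42.7 ± 14.1 in GFP.

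Cbs, which condenses homocysteine with serine as the entry to transsulfuration, was higher in Cre livers, and Shmt1, the cytosolic enzyme that moves a carbon of serine onto folate, was lower there. Cbs averaged 573 ± 183 CPM in Cre (SD, n = 5) and 313 ± 58.7 CPM in GFP (n = 5), where CPM is a gene's counts scaled to a common library total. Shmt1 averaged 133 ± 17.7 CPM in Cre and 173 ± 26.7 CPM in GFP. These were the 2 of 9 enzymes called in Cre against GFP, 1 in each direction, at an adjusted p under 0.05 in edgeR's quasi-likelihood test over 13905 genes, in which 9.55% of all genes were called. The same 2 enzymes were called in Flpo against Cre, in which 13.7% of all genes were called, with Cbs lower and Shmt1 higher in Flpo. Flpo against GFP called 0 of the 9 enzymes, and 0.0288% of all genes. In that comparison 0 of the 9 had an unadjusted p under 0.05, which 9.73% of all genes had, and DESeq2 and limma-voom also called 0. A share over 9 genes is coarse, and both comparisons that called Cbs and Shmt1 share the Cre libraries. The median log2 fold change of the 9 was -0.07 in Cre against GFP and 0.05 in Flpo against Cre, beside 0.0014 and -0.0050 over all genes tested.

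**Figure D1:**
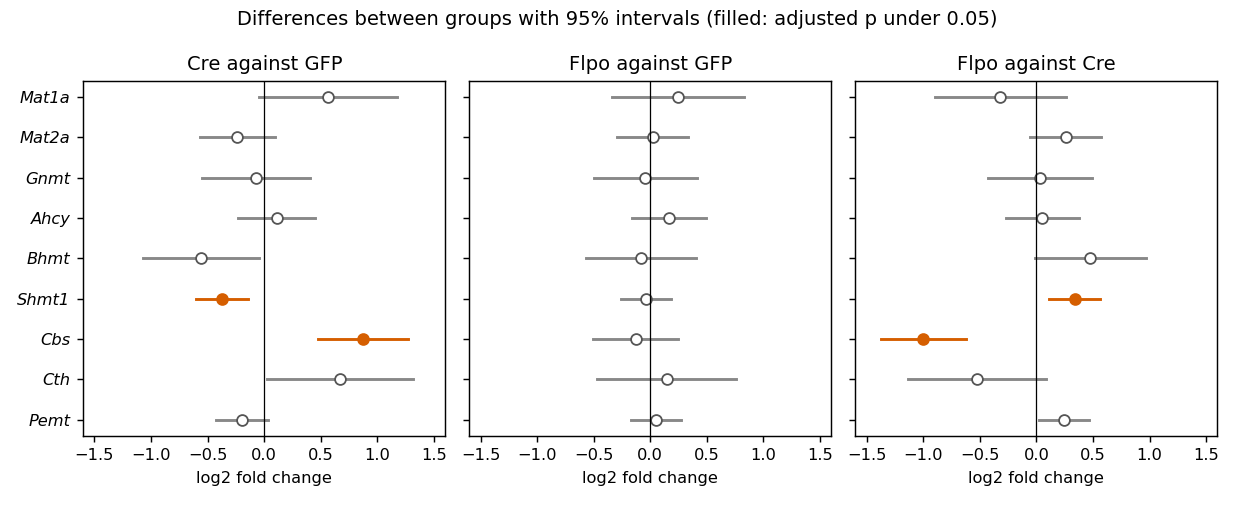
Log2 fold change (horizontal axis) of each of the 9 enzymes in Cre against GFP, Flpo against GFP and Flpo against Cre, as a point with its 95% interval. Filled points passed an adjusted p under 0.05: Cbs at 0.87 and Shmt1 at -0.37 in Cre against GFP, and Cbs at -0.9997 and Shmt1 at 0.34 in Flpo against Cre.

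Mat1a encodes the methionine adenosyltransferase of the adult liver, which makes S-adenosylmethionine. In the GENCODE annotation of GRCm38, the source of all gene positions here, its place is chromosome 14, 41105035 to 41124412, plus strand. Flpo livers had 3948 to 4767 CPM of Mat1a with a median of 4194, Cre livers had 6820, 2698, 2816, 3816 and 10543 CPM in replicates 1 to 5, and GFP livers had 3815, 3448, 3011, 3360 and 4459 CPM. Cre replicates 1 and 5 stood above every Flpo and GFP library, while Cre replicates 2 and 3 stood below all of them. The groups therefore overlapped, and the log2 fold change was 0.56 in Cre against GFP (95% interval -0.05 to 1.17, adjusted p = 0.249 in edgeR) and -0.32 in Flpo against Cre (-0.90 to 0.26, adjusted p = 0.495). With Cre replicate 5 left out the second value was 0.085.

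Mat2a encodes the methionine adenosyltransferase found in most tissues outside the adult liver. It sits on chromosome 6, 72432799 to 72439558, minus strand. The level was 75.1 to 103 CPM in Flpo with a median of 93.0, and 77.7, 100, 69.8, 66.6 and 62.7 CPM in Cre, against 83.8, 75.1, 131, 80.5 and 74.2 CPM in GFP. GFP replicate 3 was the highest of all 16 libraries, and 3 Cre libraries were lower than every library of the other groups. No comparison was called, with -0.24 in Cre against GFP (95% interval -0.56 to 0.09, adjusted p = 0.382 in edgeR). Particl, a gene on the opposite strand, covers 11.3% of the exon bases of Mat2a, so their reads may have been shared if strand was not used in counting. On the log2(TPM + 1) scale Mat2a was called in Flpo against Cre, at 0.47 (adjusted p = 0.0248 in limma), where the median of all genes was 0.14.

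Gnmt encodes glycine N-methyltransferase, which spends S-adenosylmethionine on glycine when it is in excess. It sits on chromosome 17, 46725664 to 46729168, minus strand. It had 761 to 1036 CPM in Flpo with a median of 992, and 1760, 633, 794, 670 and 848 CPM in Cre, against 972, 963, 1128, 706 and 1179 CPM in GFP. Cre replicate 1 was the highest of the 16 libraries, and the other Cre libraries were all below the GFP median. Gnmt was called in no comparison, with a log2 fold change of -0.07 in Cre against GFP (95% interval -0.55 to 0.40, adjusted p = 0.888 in edgeR).

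Pemt encodes the enzyme that methylates phosphatidylethanolamine to phosphatidylcholine in the liver, a large user of S-adenosylmethionine. The gene is on chromosome 11, 59970614 to 60046489, minus strand. Flpo livers had 203 to 290 CPM with a median of 270, Cre livers had 241, 206, 211, 203 and 210 CPM, and GFP livers had 222, 225, 266, 243 and 273 CPM. All Cre libraries but replicate 1 were below every GFP library, and Flpo replicates 1 and 4 lay at the level of the Cre libraries. Its log2 fold change was -0.20 in Cre against GFP (95% interval -0.43 to 0.03, adjusted p = 0.290 in edgeR) and 0.25 in Flpo against Cre (0.02 to 0.47, adjusted p = 0.138). Scaling by library totals alone called both differences, at -0.34 (adjusted p = 0.0399) and 0.38 (adjusted p = 0.0153). That scaling also moved the median of all genes, to -0.14 and 0.13, so relative to it Pemt moved by about the same as before. On the log2(TPM + 1) scale the values were -0.38 (adjusted p = 0.0196 in limma) and 0.44 (adjusted p = 0.00482). The median of all genes stood at -0.12 and 0.14 there, so part of the larger values is a shift of all genes.

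Ahcy encodes the hydrolase that splits S-adenosylhomocysteine, the product and inhibitor of methyltransferases, into homocysteine and adenosine. The gene is on chromosome 2, 155059310 to 155074497, minus strand. It had 2045 to 2510 CPM in Flpo with a median of 2320, and 2882, 1385, 1970, 1968 and 2889 CPM in Cre, against 1887, 1984, 2163, 1729 and 2512 CPM in GFP. The Cre libraries enclosed the range of both other groups, with replicates 1 and 5 above it and replicate 2 below it. Ahcy was not called, at 0.11 in Cre against GFP (95% interval -0.23 to 0.45, adjusted p = 0.730 in edgeR) and 0.05 in Flpo against Cre (-0.27 to 0.38, adjusted p = 0.861). Near-identical copies of its transcript, among them Gm4737 with 99.7% identity over 2083 bases, were listed at 0.344 TPM or less in every library.

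Bhmt encodes the betaine enzyme that remethylates homocysteine. The gene is on chromosome 13, 93616675 to 93637961, minus strand. Its level was 4945 to 6105 CPM in Flpo with a median of 5770, and 5449, 1965, 2611, 4024 and 6381 CPM in Cre, against 5896, 7122, 5831, 4244 and 7013 CPM in GFP. Cre replicates 2, 3 and 4 were below every Flpo and GFP library, while Cre replicate 5 was above every Flpo library. Bhmt was not called, at -0.56 in Cre against GFP (95% interval -1.07 to -0.05, adjusted p = 0.162 in edgeR) and 0.48 in Flpo against Cre (-0.01 to 0.97, adjusted p = 0.199). With Cre replicate 5 left out it was called in both, at -0.78 (adjusted p = 0.0458) and 0.69 (adjusted p = 0.04998). That library had the highest Bhmt of the Cre group, so larger differences without it follow from the choice. None of the other fits that left out a single library called Bhmt, with adjusted p up to 0.310 and 0.392. On the log2(TPM + 1) scale, tested with limma, Bhmt was called in both, at -0.85 (adjusted p = 0.0366) and 0.81 (adjusted p = 0.0305). The median of all genes stood at -0.12 and 0.14 on that scale. Gm5096, which shares 545 bases with Bhmt at 99.6% identity, was listed at 2.91 TPM or less.

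Shmt1 had 148 to 180 CPM in Flpo with a median of 175, and 135, 126, 139, 157 and 109 CPM in Cre, against 152, 165, 167, 160 and 219 CPM in GFP. Only Cre replicate 4 reached the level of the other groups, and the other 4 Cre libraries were below every Flpo and GFP library. The log2 fold change was -0.37 in Cre against GFP (SE 0.11, adjusted p = 0.0394 in edgeR) and 0.34 in Flpo against Cre (SE 0.11, adjusted p = 0.0420). Flpo against GFP gave -0.04 (95% interval -0.26 to 0.18). The Shmt1 call was close to the threshold. Of the 16 fits that left out 1 library, it held in Cre against GFP where that library was GFP 1, Cre 4 or Flpo 1 and was lost in the other 13, with an adjusted p of up to 0.114. In Flpo against Cre it held where the library was GFP 3 or 5, Cre 4 or Flpo 1 and was lost in the other 12, with an adjusted p of up to 0.101. Smcr8 on the opposite strand covers 4.74% of the exon bases of Shmt1.

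Cbs had 230 to 361 CPM in Flpo with a median of 285, and 849, 494, 495, 374 and 653 CPM in Cre, against 311, 305, 413, 269 and 269 CPM in GFP. All 5 Cre libraries were above all 6 Flpo libraries, although Cre replicate 4 at 374 CPM was near Flpo replicate 1 at 361 CPM. Cre replicate 4 was also below GFP replicate 3, so Cre and GFP overlapped. Cbs was 1 of 9 enzymes whose groups did not overlap in Flpo against Cre, where 7.84% of all genes had such groups. In Cre against GFP 0 of 9 enzymes had groups that did not overlap, where 8.2% of all genes did, and in Flpo against GFP 0 of 9, where 1.55% did. The log2 fold change was 0.87 in Cre against GFP, or 1.83-fold (SE 0.19, adjusted p = 0.00754 in edgeR), and -0.9997 in Flpo against Cre (SE 0.18, adjusted p = 0.00133). Flpo against GFP gave -0.13 (95% interval -0.50 to 0.25, adjusted p = 0.848). A stretch of 422 of the 6226 bases of the Cbs transcript is shared with Rdh16 at 90.5% identity, so a few reads may have been split between them. Both calls held with every single library left out, with adjusted p up to 0.0232 and 0.00412. The clock score differed between the groups as well. With the score as a covariate, Cbs was 0.58 in Cre against GFP (adjusted p = 0.265) and -0.57 in Flpo against Cre (adjusted p = 0.553), and Shmt1 was -0.18 (adjusted p = 0.561) and 0.04 (adjusted p = 0.963), so none of the 4 calls held. The SE of Cbs was then 0.24 and 0.29, beside 0.19 and 0.18 without the score. Because the score differed with the group, this fit cannot separate a difference between groups from one that goes with the score. In livers sequenced in bulk, fewer cells that express a gene and less of its RNA per cell cannot be told apart, and the part of the stellate cell and adipocyte markers in these differences was not tested.

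Cth encodes the lyase that splits cystathionine to cysteine, the step after Cbs. The gene is on chromosome 3, 157894248 to 157925077, minus strand. Flpo livers had 213 to 304 CPM with a median of 274, Cre livers had 760, 181, 227, 258 and 504 CPM, and GFP livers had 216, 223, 242, 205 and 325 CPM. Cre replicates 1 and 5 were above every other library and Cre replicate 2 was below every one. Cth was not called, at 0.67 in Cre against GFP (95% interval 0.03 to 1.32, adjusted p = 0.185 in edgeR) and -0.52 in Flpo against Cre (-1.14 to 0.09, adjusted p = 0.262).

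**Figure D2:**
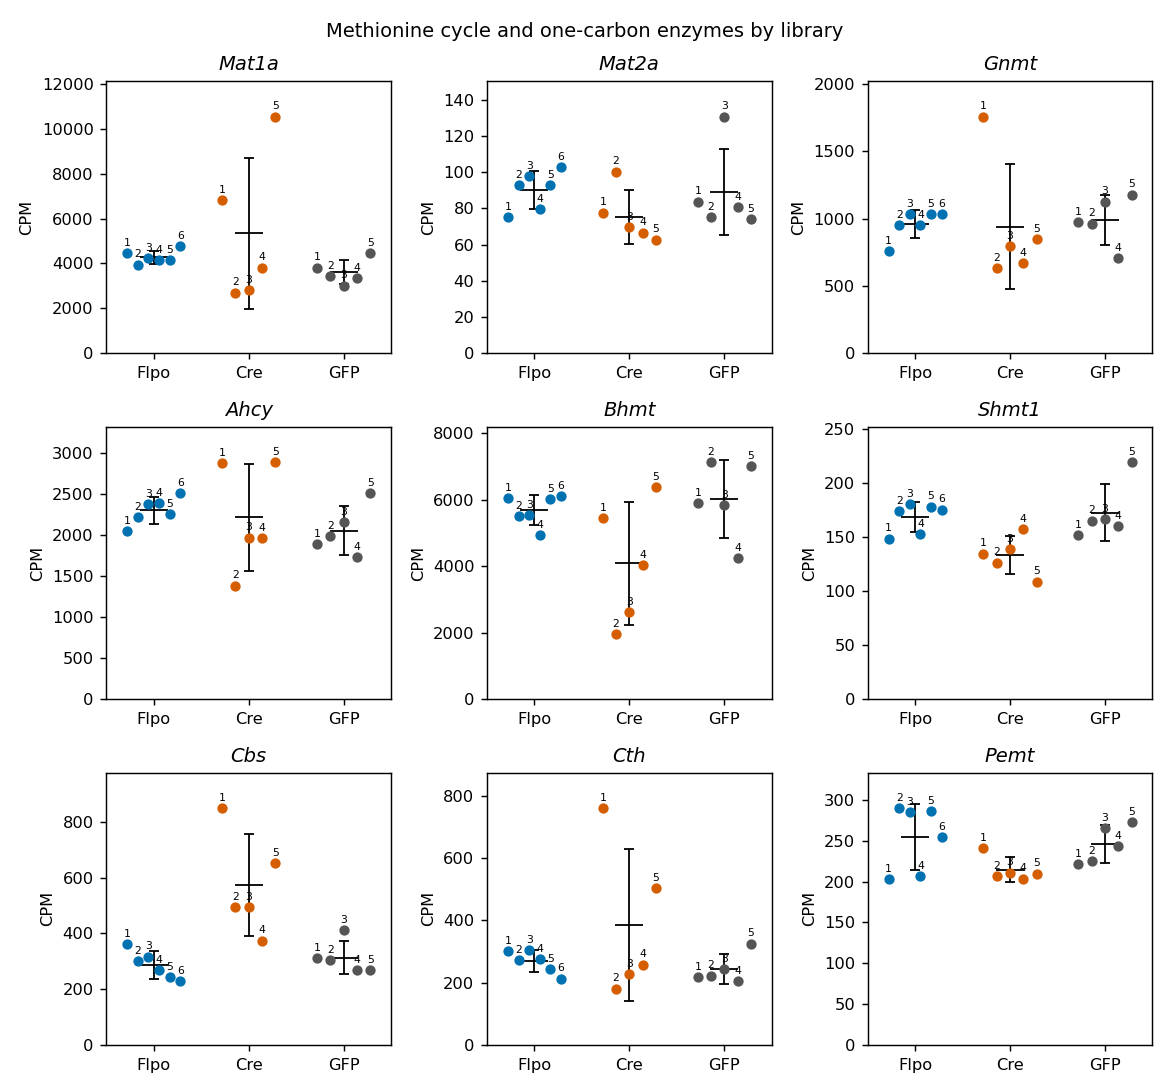
CPM (vertical axis, from 0) of each enzyme in every library, by group, with the replicate number beside each point, the mean as a horizontal line and the SD as a bar. The Cre libraries of Mat1a run from 2698 to 10543 CPM, and all 5 Cre libraries of Cbs lie above all 6 Flpo libraries.

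The starts of Cbs and Shmt1 are shown because these were the enzymes called in opposite directions. Cbs lies on chromosome 17 from 31608894 to 31637238 on the minus strand of GRCm38, and Shmt1 on chromosome 11 from 60788104 to 60811718 on the minus strand. Both sequences are from RefSeq on GRCm38.p6, the 250 bases before the annotated start (chr17:31637206-31637455 and chr11:60811266-60811515), written 5′ to 3′ on the strand of the gene. The RefSeq starts lie inside the GENCODE spans, by 33 bases for Cbs and 453 bases for Shmt1, so the printed bases of Shmt1 are within its GENCODE gene. Capitals mark matches, on either strand, to the motifs named after them.
Cbs: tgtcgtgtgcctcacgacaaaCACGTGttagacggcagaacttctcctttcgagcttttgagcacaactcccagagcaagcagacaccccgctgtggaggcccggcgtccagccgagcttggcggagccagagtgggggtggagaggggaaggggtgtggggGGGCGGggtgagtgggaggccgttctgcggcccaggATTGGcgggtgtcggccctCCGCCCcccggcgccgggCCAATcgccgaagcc
Shmt1: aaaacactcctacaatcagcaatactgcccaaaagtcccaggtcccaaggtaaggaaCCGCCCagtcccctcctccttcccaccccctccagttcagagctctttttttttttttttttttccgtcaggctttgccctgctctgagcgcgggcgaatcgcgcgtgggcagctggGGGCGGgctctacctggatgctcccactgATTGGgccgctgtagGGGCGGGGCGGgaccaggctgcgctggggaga
The search covered these bases and the 50 after the start, and used the E-box CACGTG, the AP-1 motif TGANTCA to which Jun proteins bind, the CRE TGACGTCA, the GAS TTCNNNGAA, the Sp1 box GGGCGG, the TATA box with its letters TATAAA, and the CCAAT box. Cbs held 1 E-box with its first base at -229 from the start, 2 Sp1 boxes and 2 CCAAT boxes. Shmt1 held 4 Sp1 boxes, of which those at -32 and -27 overlap by 1 base, and 1 CCAAT box. Neither held an AP-1 motif, a CRE, a GAS or a TATA box in this window. Of 32851 RefSeq promoters of the same length, 7.15% held the E-box, 35.7% the Sp1 box, 37.4% CCAAT and 7.81% the AP-1 motif. The GC content was 66.7% for Cbs and 60.7% for Shmt1, beside a median of 52.7% over those promoters.

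At the median of these enzymes, the Cre libraries varied more among themselves than the libraries of the other groups. The median coefficient of variation over the 9 enzymes was 11% in Flpo, 32.0% in Cre and 18.6% in GFP. This did not hold for every enzyme. Pemt varied least in Cre, at 7.16% beside 15.8% in Flpo and 9.48% in GFP. Mat2a, at 19.8% in Cre and 26.7% in GFP, and Shmt1, at 13.3% and 15.5%, varied most in GFP. Over the 2380 genes with a mean of at least 50 CPM the median was 10.05% in Flpo, 14.5% in Cre and 9.97% in GFP. Cre replicate 1 was among the top 2 libraries of its group in 8 of the 9 enzymes, and Cre replicate 5 in 6. Cre replicate 2 was the lowest of its group in 5. The 9 enzymes together held 0.784% to 0.909% of all TPM in Flpo, 0.407% to 1.0045% in Cre and 0.677% to 0.913% in GFP. Cre replicates 2 and 3 were at the lower end with 0.407% and 0.449%, below every library of the other groups, and Cre replicates 1 and 5 were above every one, with 0.997% and 1.0045%.

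Cre replicates 1 and 5 were left out together as an alternative chosen after seeing the data. Cbs then stood at 0.54 in Cre against GFP (adjusted p = 0.0550 in edgeR), no longer past the threshold, and at -0.67 in Flpo against Cre (adjusted p = 0.0113), still past it. Shmt1 stood at -0.29 (adjusted p = 0.173) and 0.25 (adjusted p = 0.197), past the threshold in neither. Bhmt was called without them, at -1.06 in Cre against GFP (adjusted p = 0.00529) and 0.98 in Flpo against Cre (adjusted p = 0.00534). These libraries were picked for their high Mat1a and Cth, and they also had the highest Bhmt and Cbs of the Cre group. Lower Cre values of all these genes without them follow from the choice, and the Bhmt calls are not a separate result. Of the 14 calls described here in Cre against GFP, the enzymes and the named genes together, 7 held without these libraries, as did 10 of the 18 in Flpo against Cre.

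Between enzymes, levels were compared in TPM, which accounts for gene length. Bhmt had the highest mean level in every group, at 3032 ± 248 TPM in Flpo (SD, n = 6), 1903 ± 881 in Cre (n = 5) and 3146 ± 552 in GFP (n = 5). Mat2a had the lowest, at 54.4 ± 5.74 TPM in Flpo, 39.5 ± 7.79 in Cre and 52.6 ± 12.2 in GFP. In Flpo the order below Bhmt was Mat1a at 1742 ± 145, Gnmt at 1530 ± 167, Ahcy at 1199 ± 99.6, Pemt at 423 ± 56.9, Cth at 213 ± 28.1, Cbs at 167 ± 28.3 and Shmt1 at 101 ± 6.65 TPM. Each of these stood above the next in all 6 Flpo libraries. In Cre the 4 most abundant enzymes, Bhmt, Mat1a at 1881 ± 1160, Gnmt at 1293 ± 632 and Ahcy at 1001 ± 298 TPM, stood above the next in order in 3, 3 and 4 of the 5 libraries, so neighbours did not differ beyond their spread. Among Pemt at 310 ± 31.1, Cbs at 288 ± 88.1 and Cth at 266 ± 166 TPM, each stood above the next in 3 of 5 Cre libraries, while Shmt1 at 70.0 ± 14.6 TPM was below each of these in all 5 libraries. In GFP, Gnmt at 1541 ± 225 and Mat1a at 1446 ± 220 TPM overlapped, as did Cth at 189 ± 29.9 and Cbs at 179 ± 28.5 TPM. Ahcy at 1047 ± 105, Pemt at 402 ± 23.4 and Shmt1 at 102 ± 12.3 TPM were each above the next enzyme in all 5 GFP libraries. Cbs thus stood below Cth in all 6 Flpo libraries, above it in 3 of 5 Cre libraries and above it in 3 of 5 GFP libraries.

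Ratios of TPM within a library do not depend on scaling between libraries, and 3 of them are given as descriptions with no test, since they were picked after the levels were seen. The ratio of Bhmt to Cbs sets the enzyme that keeps homocysteine in the cycle beside the one that draws it off. It was 15.3 to 24.3 in Flpo, 5.86, 3.63, 4.81, 9.82 and 8.92 in Cre replicates 1 to 5, and 17.3, 21.3, 12.9, 14.4 and 23.8 in GFP. All 5 Cre libraries were below every Flpo and GFP library, replicates 1 and 5 included. The ratio of Mat1a to Mat2a was 28.5 to 39.9 in Flpo, 18.1 to 113 in Cre and 15.5 to 40.4 in GFP. The ratio of Cbs to Cth was 0.714 to 0.879 in Flpo, 0.820 to 2.01 in Cre and 0.608 to 1.25 in GFP. In both of these the groups overlapped.

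**Figure D3:**
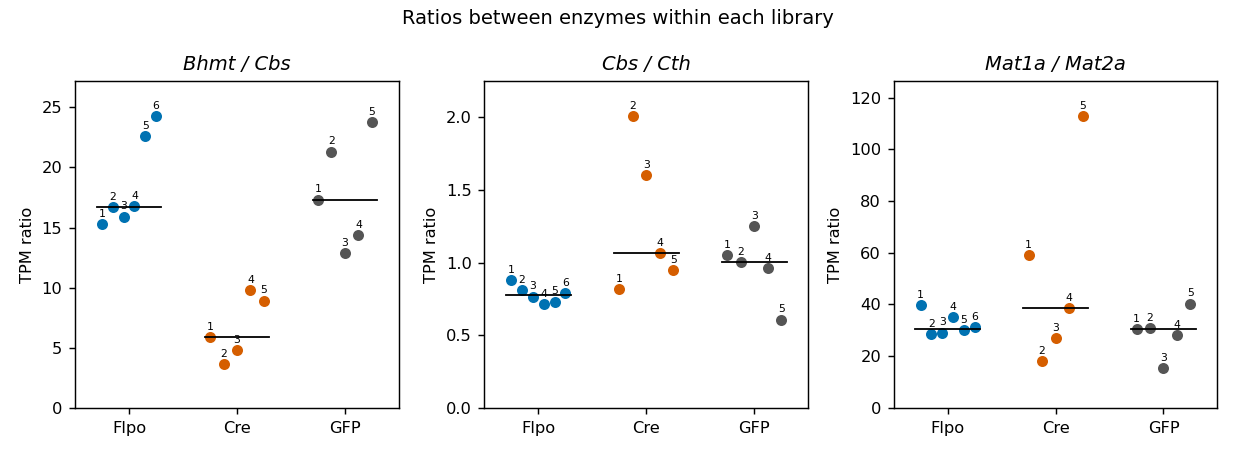
Ratio of TPM between pairs of enzymes within each library (vertical axis, from 0), by group, with replicate numbers and the group median as a line. The Bhmt to Cbs ratio is at most 9.82 in Cre and at least 12.9 in every Flpo and GFP library.

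The genes whose pattern over the 16 libraries was most like that of Cbs were Agxt and Zfp707, out of 11781 genes with a mean of at least 1 CPM. Agxt encodes the alanine-glyoxylate aminotransferase of liver. Likeness was the root mean square difference of log2 CPM after centring each gene, which was 0.13 for Agxt and 0.21 for Zfp707, beside a median of 0.56 over all genes. For Shmt1 the closest genes were Shmt2, its mitochondrial paralog, at 0.10 and Iyd, an iodotyrosine deiodinase, at 0.11, beside a median of 0.33. Shmt2 had 194 to 230 CPM in Flpo with a median of 221, and 197, 162, 183, 184 and 130 CPM in Cre, against 193, 203, 227, 209 and 240 CPM in GFP. Its log2 fold change was 0.35 in Flpo against Cre (SE 0.10, adjusted p = 0.0247 in edgeR), a call that was lost without Cre replicate 2 or Flpo replicate 3, 5 or 6, with adjusted p up to 0.0642.

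Around the 9 enzymes, 6 lists of related genes were counted in the same fit. In Flpo against GFP 0 of the 80 listed genes were called, with 14 at an unadjusted p under 0.05, which 9.73% of all genes had. In Cre against GFP 30 of the 80 had an unadjusted p under 0.05, which 24.3% of all genes had. Called were 16 of the 80 in Cre against GFP and 26 of the 80 in Flpo against Cre, where 9.55% and 13.7% of all genes were called. The lists were chosen with earlier results of these data known. The other genes of the methionine cycle and of methionine salvage numbered 15, of which 3 were higher and 0 lower in Flpo than in Cre, and 0 were higher and 2 lower in Cre than in GFP. Their median log2 fold change was 0.22 in Flpo against Cre and -0.06 in Cre against GFP, beside -0.0050 and 0.0014 over all genes. The 3 were Apip, an enzyme of methionine salvage, Amd1, which makes the aminopropyl donor for polyamines from S-adenosylmethionine, and Srm, the spermidine synthase. Amd1 was 41.4 ± 8.13 CPM in Flpo (SD, n = 6), 30.3 ± 2.77 CPM in Cre (n = 5) and 31.7 ± 2.44 CPM in GFP (n = 5). Its log2 fold change was 0.45 in Flpo against Cre (SE 0.12, adjusted p = 0.0148 in edgeR). It was 0.39 in Flpo against GFP (adjusted p = 0.307) and -0.06 in Cre against GFP (adjusted p = 0.799), neither of them called. Apip was 13.8 ± 1.91 CPM in Flpo and 10.2 ± 1.09 CPM in Cre, against 13.9 ± 1.03 CPM in GFP. Its log2 fold change was 0.44 in Flpo against Cre (adjusted p = 0.0125 in edgeR) and -0.45 in Cre against GFP (adjusted p = 0.0206), the second lost without GFP replicate 2 or 3 with adjusted p up to 0.0506. Srm was 26.5 ± 3.72 CPM in Flpo, 19.5 ± 2.34 CPM in Cre and 21.2 ± 3.62 CPM in GFP. Its call in Flpo against Cre (adjusted p = 0.0239 in edgeR) was lost without Cre replicate 1 or 2 or Flpo replicate 3 or 6, with adjusted p up to 0.0732. The log2 fold change of Srm was 0.32 in Flpo against GFP (adjusted p = 0.422) and -0.12 in Cre against GFP (adjusted p = 0.615), neither of them called.

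Mat2b, the regulatory subunit that pairs with Mat2a, was 26.9 ± 2.44 CPM in Flpo, 31.2 ± 1.78 CPM in Cre and 27.7 ± 2.16 CPM in GFP and was not called. Bhmt2, which uses S-methylmethionine as methyl donor, was 223 ± 23.6 CPM in Flpo, 191 ± 52.0 CPM in Cre and 206 ± 12.5 CPM in GFP and was not called. Ahcyl1, a protein related to Ahcy, was 86.3 ± 4.04 CPM in Flpo, 88.7 ± 9.10 in Cre and 81.2 ± 8.65 in GFP and was not called. Ahcyl2 was 12.0 ± 1.64 CPM in Flpo, 10.2 ± 1.42 in Cre and 15.4 ± 5.24 in GFP. Its log2 fold change in Cre against GFP was -0.60 (SE 0.18, adjusted p = 0.0418 in edgeR). GFP replicate 3 stood at 24.5 CPM, and without it the difference was -0.37 (adjusted p = 0.108), while the call was lost in 11 of the 16 fits that left out 1 library and kept where that library was GFP 2, 4 or 5, Cre 4, or Flpo 5.

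Among 19 folate genes, 3 were higher and 3 lower in Flpo than in Cre, and 1 was higher and 1 lower in Cre than in GFP, with medians of 0.21 and -0.14. Mthfd2, a mitochondrial folate dehydrogenase, was at 0.773 ± 0.224 CPM in Flpo and 2.04 ± 1.07 CPM in Cre, a log2 fold change of -1.40 (adjusted p = 0.0133 in edgeR) that was lost without Cre replicate 1 (-1.07, adjusted p = 0.0524).

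Among 13 genes of glycine, serine and betaine, 1 was higher and 2 lower in Flpo than in Cre, and 1 was higher and 0 lower in Cre than in GFP, with medians of 0.07 and -0.05. Psat1, an enzyme of serine synthesis, was low in every group, at 0.434 to 1.70 CPM in Flpo, 8.37, 3.66, 1.38, 1.11 and 4.36 CPM in Cre and 0.570 to 1.30 CPM in GFP. It was higher in Cre than in GFP by 2.02 (SE 0.50, adjusted p = 0.0161 in edgeR), lost without Cre replicate 1 at 1.503 (adjusted p = 0.0504), and was -2.07 in Flpo against Cre (adjusted p = 0.00677). Dmgdh, which oxidises the dimethylglycine left by Bhmt, was 539 ± 35.3 CPM in Flpo, 410 ± 53.6 CPM in Cre and 463 ± 63.4 CPM in GFP. It was higher in Flpo than in Cre by 0.40 (SE 0.10, adjusted p = 0.0145 in edgeR). Gldc, of the glycine cleavage system, was 129 ± 22.1 CPM in Flpo, 187 ± 37.8 CPM in Cre and 169 ± 34.9 CPM in GFP. Its log2 fold change in Flpo against Cre was -0.53 (adjusted p = 0.0243 in edgeR). That call was lost without Cre replicate 1 (adjusted p = 0.0705) and with scaling by library totals alone (-0.39, adjusted p = 0.0816).

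The 10 choline and phosphatidylcholine genes had 3 higher and 3 lower in Flpo than in Cre, and 1 higher and 3 lower in Cre than in GFP, with medians of 0.02 and 0.18. They supply the route to phosphatidylcholine that runs beside Pemt. Chka, the first kinase of that route, was 10.3 to 20.7 CPM in Flpo with a median of 14.3, and 58.0, 61.0, 36.1, 25.8 and 48.7 CPM in Cre, against 24.2, 21.9, 16.8, 24.8 and 14.9 CPM in GFP. All 5 Cre libraries were above all Flpo and GFP libraries. Chka was higher in Cre than in GFP by 1.16 (SE 0.24, adjusted p = 0.00547 in edgeR) and was -1.68 in Flpo against Cre (SE 0.23, adjusted p = 0.000153). Pcyt1a, the next and rate-limiting enzyme, was 99.0 ± 8.10 CPM in Flpo, 56.9 ± 11.6 in Cre and 83.0 ± 13.3 in GFP. It moved the other way from Chka, at 0.80 in Flpo against Cre (SE 0.13, adjusted p = 0.000552 in edgeR) and -0.54 in Cre against GFP (SE 0.13, adjusted p = 0.0154). Chpt1, which completes the route, was 408 ± 34.3 CPM in Flpo, 261 ± 46.7 in Cre and 345 ± 27.8 in GFP, higher in Flpo than in Cre by 0.64 (adjusted p = 0.000854 in edgeR). Its difference of -0.40 in Cre against GFP (adjusted p = 0.0304) was lost with any of GFP replicates 1, 2, 4 and 5 and Cre replicates 1 and 2 left out, with adjusted p up to 0.0826.

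Of 12 sulfur amino acid and glutathione genes, 2 were higher and 1 lower in Flpo than in Cre, and 1 was higher and 2 lower in Cre than in GFP, with medians of -0.00092 and -0.15. Got1, an aspartate aminotransferase that also acts on cysteine sulfinate, was 85.5 to 136 CPM in Flpo with a median of 109, and 725, 131, 199, 98.2 and 721 CPM in Cre, against 107, 89.1, 77.2, 73.3 and 87.4 CPM in GFP. The highest levels were in Cre replicates 1 and 5, and Cre replicate 4 lay within the GFP range. Its log2 fold change was 2.11 in Cre against GFP (SE 0.48, adjusted p = 0.0125 in edgeR) and -1.80 in Flpo against Cre (SE 0.44, adjusted p = 0.0143). With both of these libraries left out the first was 0.72 (adjusted p = 0.0365) and the second -0.41 (adjusted p = 0.185). On the log2(TPM + 1) scale the second was -1.11 (adjusted p = 0.0628 in limma). Sqor, which oxidises hydrogen sulfide, was 115 ± 3.69 CPM in Flpo, 77.6 ± 20.9 in Cre and 115 ± 18.6 in GFP. It was higher in Flpo than in Cre by 0.56 (SE 0.15, adjusted p = 0.0176 in edgeR) and was -0.57 in Cre against GFP (adjusted p = 0.0285), the second lost with any of GFP replicates 1, 3 and 5 and Cre replicate 2 left out, with adjusted p up to 0.0753. Suox, the sulfite oxidase, was 113 ± 10.53 CPM in Cre and 137 ± 11.8 CPM in GFP, a log2 fold change of -0.28 (adjusted p = 0.0361 in edgeR), a call lost, with adjusted p up to 0.101, unless the library left out was GFP 4, Cre 1, 4 or 5, or Flpo 1.

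Of 11 other methyltransferases that use S-adenosylmethionine, 4 were higher and 1 lower in Flpo than in Cre, and 0 were higher and 4 lower in Cre than in GFP, with medians of -0.04 and -0.0016. Hnmt, which methylates histamine, was 23.5 to 34.7 CPM in Flpo with a median of 30.0, and 9.48, 8.73, 11.5, 12.7 and 4.47 CPM in Cre, against 32.6, 25.3, 23.5, 24.8 and 30.4 CPM in GFP. Every Cre library was below every Flpo and GFP library. Hnmt had a log2 fold change of -1.54 in Cre against GFP (SE 0.21, adjusted p = 0.00018 in edgeR) and of 1.66 in Flpo against Cre (SE 0.20, adjusted p = 5.3e-05). Inmt, which methylates indole amines, was 247 to 355 CPM in Flpo with a median of 296, and 97.1, 98.8, 112, 157 and 53.9 CPM in Cre, against 201, 186, 248, 272 and 462 CPM in GFP. Its groups did not overlap in either comparison with Cre, at -1.40 in Cre against GFP (SE 0.25, adjusted p = 0.00257 in edgeR) and 1.54 in Flpo against Cre (SE 0.25, adjusted p = 0.000726). Tpmt, the thiopurine methyltransferase, was 42.5 ± 5.31 CPM in Flpo, 31.3 ± 7.12 in Cre and 49.2 ± 4.999 in GFP, a log2 fold change of -0.65 in Cre against GFP (SE 0.14, adjusted p = 0.00676 in edgeR). Its difference of 0.44 in Flpo against Cre (adjusted p = 0.0363) was lost in 8 of the 16 fits that left out 1 library, and was kept where that library was GFP 1, 3, 4 or 5, Cre 3, 4 or 5, or Flpo 2.

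**Figure D4:**
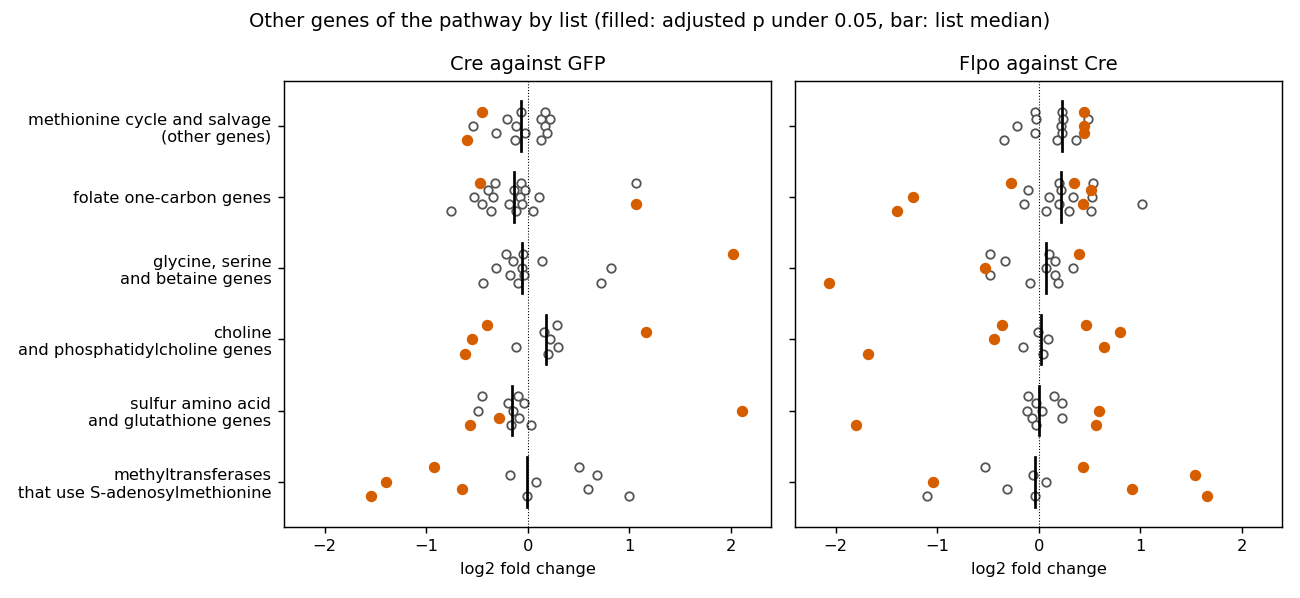
Log2 fold change (horizontal axis) of every tested gene of the 6 lists in Cre against GFP and Flpo against Cre, 1 point per gene, filled at an adjusted p under 0.05, with the list median as a bar. The list of other methyltransferases has 4 filled points below 0 in Cre against GFP and 4 above 0 in Flpo against Cre.

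Of the 14 calls given for the enzymes and the named genes in Cre against GFP, 1 was kept with the clock score as a covariate, and of the 18 in Flpo against Cre, 1 was kept. Both were Hnmt, at -1.47 in Cre against GFP (adjusted p = 0.00658 in edgeR) and 1.55 in Flpo against Cre (adjusted p = 0.0454). None of the others changed direction, and not all became smaller. The score differed with the group, so a lost call does not show that a difference was absent. Of the 13 calls lost in Cre against GFP, 3 had at least 90% of their log2 fold change without the score and 1 had under 50%. Of the 17 lost in Flpo against Cre, 4 had at least 90% and 4 under 50%. Apip was -0.49 in Cre against GFP (adjusted p = 0.126) and 0.51 in Flpo against Cre (adjusted p = 0.358), both larger in size than without the score.

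**Figure D5:**
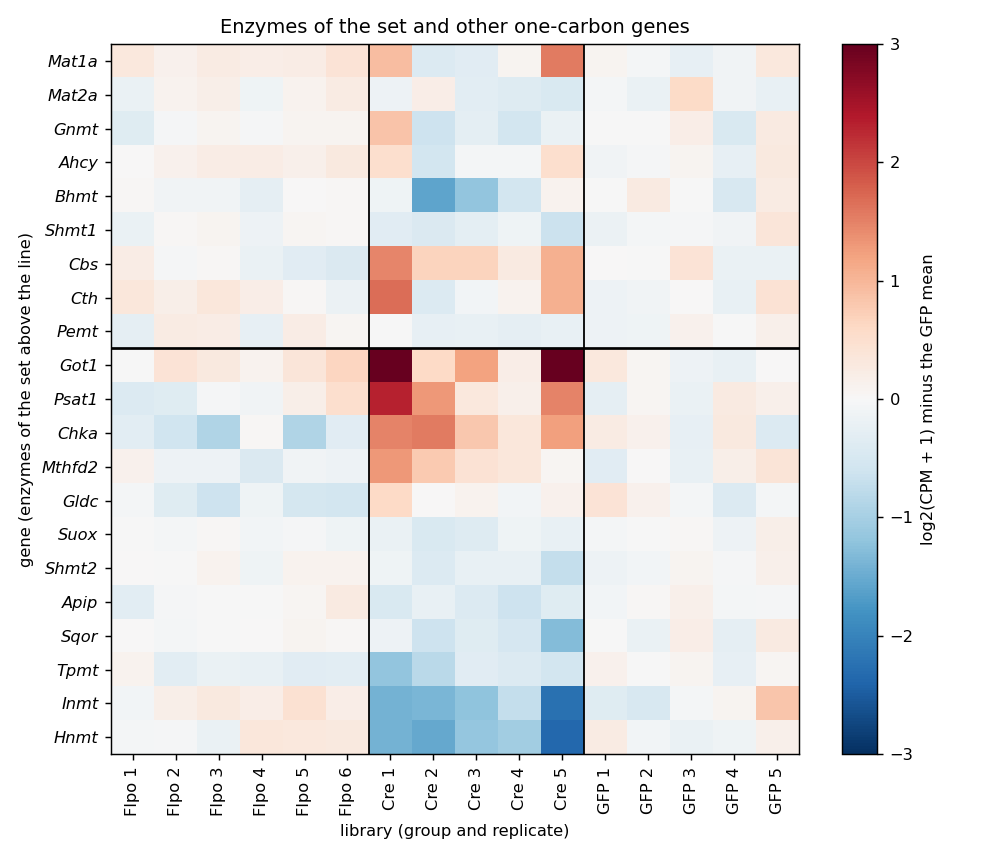
Colour shows log2(CPM + 1) minus the GFP mean for the 9 enzymes (rows above the line) and 12 other one-carbon genes (below it) in the 16 libraries (columns), with the scale ending at 3 on either side. Cbs is above the GFP mean in all 5 Cre columns, but only a little in Cre replicate 4 at 374 CPM, which GFP replicate 3 at 413 CPM exceeds. Mat1a, Cth and Got1 are darkest in Cre replicates 1 and 5.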

How the data were processed

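RNA of the liver, extracted by RNeasy with DNase I treatment, was enriched for polyA and sequenced in paired reads of 150 bases, per the labels' protocols. Per the submitters' processing notes, cutadapt and STAR were used with the mm10 build, and no version is named. The authors deposited estimated counts and TPM by gene, as separate tables. Which program made them, on which annotation and whether by strand, is not given in the sources used here. Values that were not whole made up 31.7% of the deposited counts, and in 10835 genes with counts in every library each was the deposited TPM times 1 factor per gene and 1 per library, to within 1.07e-09 on the log2 scale. The counts and TPM thus differ only by these factors, and which was made from the other cannot be told.

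Groups and replicate numbers come from the titles. Estimated counts were rounded, filtered with filterByExpr (minimum count 10), scaled by TMM and tested in edgeR 4.0.16 (R 4.3.3) by 1 robust quasi-likelihood fit of all 16 libraries, with Benjamini-Hochberg adjustment over 13905 genes. A gene was called at an adjusted p under 0.05, and each SE was worked out from the log2 fold change and the F value. CPM and TPM are given as mean ± SD. A pair of libraries counted as a possible duplicate if it agreed within sampling noise, and no pair did, with a chi-square per gene of 29.8 or more. Same-numbered libraries did not deviate together, with correlations between -0.21 and 0.19, so numbers do not pair them. Alternatives were other scalings and filters, DESeq2 1.42.0, limma 3.58.1 (voom, and log2 of TPM plus 1 or 0.1), a clock score, a replicate block, fewer groups and each library left out. The 9 enzymes, the 6 lists and the clock score were chosen with earlier results of these data known. Some genes of the lists are counted but not reported here by name.

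The named genes are the 9 enzymes, up to 3 genes per list with the smallest adjusted p in any comparison, and the 2 genes most like each called enzyme. The regulatory subunit Mat2b and the paralogs Ahcyl1, Ahcyl2, Bhmt2 and Shmt2 were added to them. Positions and overlaps are from the GENCODE annotation of GRCm38, copies were searched with blastn 2.17.0 (at least 90% identity over 200 bases), and promoters are from RefSeq on GRCm38.p6, where 7 of the 9 enzymes matched by symbol. The fits were checked on simulated counts.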

Additional observations from a re-analysis of the deposited data

Results flagged for a closer look

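Of 27 sets of 5 or 6 libraries, 1 for each enzyme in each group, 6 had a library whose gap to its nearest neighbour was large beside the range of its group (Dixon's 95% value), where chance gives about 1 in 20. In Flpo, replicate 1 had 761 CPM of Gnmt, against 951 to 1036 CPM in the other 5. In Cre, replicate 1 had 1760 CPM of Gnmt, against 633 to 848 CPM in the other 4, and 241 CPM of Pemt, against 203 to 211 CPM. In GFP, replicate 3 had 131 CPM of Mat2a, against 74.2 to 83.8 CPM in the other 4, and 413 CPM of Cbs, against 269 to 311 CPM. GFP replicate 5 had 219 CPM of Shmt1, against 152 to 167 CPM in the other 4. Without GFP replicate 3, the highest GFP library of Cbs, the Cre and GFP ranges of Cbs no longer overlapped. That follows from the choice of library and is not a separate result.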

How the results depend on the processing

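Over 837 values for the 9 enzymes in 3 comparisons and their alternatives, 736 kept their direction and their side of the threshold, 41 lost a call, 18 gained one and 42 changed sign. None of the 4 calls of Cbs and Shmt1 changed sign. Cbs was weaker with the clock score and, in Cre against GFP, without Cre replicates 1 and 5, as given above, and kept its calls in every other alternative.

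The enzymes called, 2 in Cre against GFP and 2 in Flpo against Cre, became 1 and 1 with no low-count filter, with the 2 groups compared alone, with the replicate block and at an adjusted p under 0.01, and 0 and 0 with the clock score. On both TPM scales they became 4 and 5. With the Mup genes left out of the scaling Flpo against Cre called 1, and without Cre replicates 1 and 5 Cre against GFP called 1 and Flpo against Cre 3. Library totals alone and voom with sample weights called 3 in each. Leaving out 1 library gave 1 to 2 in each. The replicate block, fitted without Flpo replicate 6, lost Shmt1 (-0.35 with adjusted p = 0.105 in edgeR, and 0.30 with adjusted p = 0.147) and kept Cbs. The labels state nothing that same-numbered libraries share beyond the number.

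All genes called, 1328 for Cre against GFP, 4 for Flpo against GFP and 1906 for Flpo against Cre, became 241, 0 and 53 with the clock score, 475, 0 and 881 at an adjusted p under 0.01, 2127, 1 and 2770 on log2(TPM + 1) and 2206, 2 and 2831 on log2(TPM + 0.1). With the 2 groups compared alone they were 834, 1 and 1636, with the block 1019, 0 and 1352, and without Cre replicates 1 and 5 they were 847, 16 and 1366. Flpo against GFP gave 71 with DESeq2, 0 with limma-voom and 20 with sample weights, and 1353 genes at an unadjusted p under 0.05. Leaving out 1 library gave 960 to 1462, 0 to 15 and 1454 to 2189, and the 15 came without GFP replicate 5 or Flpo replicate 1. The higher and lower calls were 552 and 776 in Cre against GFP and 1036 and 870 in Flpo against Cre. With library totals alone they were 300 and 1656, and 1810 and 454. On log2(TPM + 1) they were 218 and 1909, and 2443 and 327, and on log2(TPM + 0.1) they were 220 and 1986, and 2504 and 327. The cause was not tested.

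Signs that changed were of uncalled differences, and Mat1a in Flpo against Cre became called with its new sign without Cre replicates 1 and 5 (0.45, adjusted p = 0.0372 in edgeR). Those libraries were picked for their high Mat1a and Cth, so a lower Cre level of both follows from the choice and that call is not a separate result. Without those 2 libraries Cth was 0.27 in Flpo against Cre, and in Cre against GFP Mat1a was -0.21, Ahcy -0.21, Cth -0.12, Amd1 0.029 and Gldc -0.012. With library totals alone, Cre against GFP gave Ahcy -0.031, Gldc -0.0013 and Ahcyl1 -0.013, and Flpo against Cre gave Ahcyl1 0.094. With voom weights, Ahcy was -0.032 in Cre against GFP, Gnmt 0.056 and Shmt1 0.0093 in Flpo against GFP, and Mat1a 0.18 in Flpo against Cre. With the block, Mat2a was -0.0065 in Flpo against GFP. With the clock score, Amd1 was 0.029 and Gldc -0.18 in Cre against GFP, Mat2a -0.023, Gnmt 0.065, Cbs 0.0093 and Pemt -0.021 in Flpo against GFP, and Mat1a 0.059 in Flpo against Cre. On log2(TPM + 1), Cre against GFP gave Ahcy -0.12, Gldc -0.037, Mat2b -0.011 and Ahcyl1 -0.054, and Flpo against Cre gave Mat1a 0.10 and Ahcyl1 0.17. On log2(TPM + 0.1) the same 6 were -0.12, -0.037, -0.011, -0.056, 0.10 and 0.17.

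With 1 library left out, Gnmt ranged from -0.42 to 0.041 in Cre against GFP, from -0.14 to 0.028 in Flpo against GFP and from -0.084 to 0.38 in Flpo against Cre. Ahcy ranged from -0.0019 to 0.24 in Cre against GFP and from -0.077 to 0.17 in Flpo against Cre, Mat1a from -0.49 to 0.085 in Flpo against Cre and Ahcyl1 from -0.083 to 0.010 there. In Flpo against GFP, Mat2a ranged from -0.037 to 0.20 and Shmt1 from -0.080 to 0.064. Of 32 calls given for enzymes and named genes, 19 were kept in each of these 16 fits. The enzymes had at least 1599 counts in each library, while Psat1 and Mthfd2, at 0.434 and 0.433 CPM in their lowest libraries, rest on few counts.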

Other observations

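Further genes of the 6 lists passed the test of all genes but fell outside the rule for named genes, and they are given here after their values were seen, with no alternative run for each of them. Gamt, which makes creatine and is a large user of S-adenosylmethionine, was 190 ± 26.01 CPM in Flpo (SD, n = 6) and 101 ± 35.5 CPM in Cre (n = 5), against 191 ± 34.4 CPM in GFP (n = 5). Its log2 fold change was 0.91 in Flpo against Cre (SE 0.22, adjusted p = 0.00986 in edgeR) and -0.92 in Cre against GFP (SE 0.23, adjusted p = 0.0165). Slc44a1, a choline transporter, was 34.0 ± 3.37 CPM in Flpo, 24.6 ± 4.11 CPM in Cre and 37.8 ± 7.55 CPM in GFP, with 0.46 in Flpo against Cre (adjusted p = 0.0265 in edgeR) and -0.62 in Cre against GFP (adjusted p = 0.00910). Aldh1l1, which oxidises a folate-bound carbon, was 827 ± 42.0 CPM in Flpo and 579 ± 148 CPM in Cre, with 0.51 in Flpo against Cre (adjusted p = 0.0322 in edgeR), and Fmo1 was 253 ± 47.4 CPM in Flpo and 167 ± 54.2 CPM in Cre, with 0.60 (adjusted p = 0.0499). Lower in Flpo than in Cre were Fpgs (-0.27, adjusted p = 0.0378 in edgeR), Chkb (-0.45, adjusted p = 0.0129), Pcyt2 (-0.36, adjusted p = 0.0302) and Dnmt3b (-1.05, adjusted p = 0.0225).

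Genes of the periportal and pericentral ends of the liver lobule were read as well, 6 of each. Over all genes, 13.7% were called in Flpo against Cre and 9.55% in Cre against GFP. Of the periportal genes, 1 was lower in Flpo than in Cre and 1 higher in Cre than in GFP, in both cases Pck1, the enzyme of gluconeogenesis, at 1885 ± 421 CPM in Flpo, 3411 ± 773 CPM in Cre and 1374 ± 615 CPM in GFP. Pck1 had a log2 fold change of -0.86 in Flpo against Cre (adjusted p = 0.0241 in edgeR) and of 1.31 in Cre against GFP (adjusted p = 0.00381). Of the pericentral genes, 1 was higher in Flpo than in Cre, Glul, the glutamine synthetase, at 1353 ± 127 CPM in Flpo and 844 ± 166 CPM in Cre (0.68, adjusted p = 0.00137 in edgeR), and 0 of the 6 passed in Cre against GFP, where 2 of the 6 and 24.3% of all genes had an unadjusted p under 0.05.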
